A study of Mus musculus with 10 samples.

Results

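Globin transcripts were present in every liver library of the reciprocal crosses, and they were more abundant in the obese BFMI animals than in the lean B6N animals. Summed over 4 adult globin genes they reached 741 ± 91.5 CPM in BFMI and 261 ± 73.4 CPM in B6N (SD, n = 2), and 453 ± 28.8 CPM in matBFMI and 448 ± 30.8 CPM in patBFMI (SD, n = 3). CPM is the count of a gene relative to the total of its library, after TMM scaling of that total for differences in composition, and it serves to compare one gene between libraries. The genes described are the adult alpha globin genes Hba-a1 and Hba-a2, the adult beta globin genes Hbb-bs and Hbb-bt, and the erythroid genes Alas2 and Slc4a1. They were listed by name, and they are 6 of the 41388 genes in the deposited tables, in which all 6 were found. They were selected on their measured levels in these same libraries. The levels and fold changes of the 6 genes are therefore a description, with no test of the list.

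Hemoglobin of the adult mouse is a tetramer of alpha and beta globin chains with heme, and it is made in erythroid cells of bone marrow and spleen. Alas2 encodes the erythroid form of 5-aminolevulinate synthase, the first enzyme of heme synthesis, whereas its relative Alas1 serves the liver and other tissues. Slc4a1 encodes band 3, the anion exchanger of the red cell membrane. Reticulocytes still hold globin RNA after the nucleus is lost, so an organ that is rich in blood carries erythroid transcripts of circulating cells. The beta globin locus exists in several haplotypes in laboratory mice, and strain C57BL/6 carries the one with Hbb-bs and Hbb-bt. The labels do not give the haplotype of BFMI.

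The 10 libraries came from livers of animals aged 10 weeks. The 3 matBFMI males had a mother of the Berlin Fat Mouse line BFMI860-12/Hber and a B6N father. The 3 patBFMI males had the reverse parents, and each male of a group had its own mother. The inbred BFMI and B6N (C57BL/6NCrl) groups held 1 male and 1 female each. BFMI is an inbred model of obesity, which the study traces to a major recessive mutation in the line. The study nevertheless reports more fat mass in matBFMI than in patBFMI males, so the reciprocal comparison sets obese against lean males. F1 males received a high fat diet between weaning on day 21 and dissection on day 70. The labels give a standard breeding diet for the parental strains, but the study's methods give the high fat diet for the inbred controls. Strain, cross and diet can therefore not be fully told apart where F1 and inbred animals are compared.

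Total counts were 46988713 to 58955349 in 9 libraries and 96023811 in the library of the BFMI male. Among the F1 libraries patBFMI 1 stood apart by its 32421 genes with a count, against 22095 to 26694 in the other 5. The inbred libraries had 29942 to 34572 genes with a count, so most F1 libraries differed from them in this measure. The matBFMI libraries were read on lane 6 and the patBFMI libraries on lane 5, so the direction of the cross and the lane cannot be told apart. The BFMI male was read on lane 1 and the other inbred animals on lane 4. Lane can therefore also not be told apart from the difference between F1 and inbred animals. Hepatocyte markers were high in all libraries, with albumin (Alb) at 38260 to 68710 CPM, Apoa1, an apolipoprotein, at 3877 to 5775 CPM and Cps1, the first enzyme of the urea cycle, at 2505 to 7254 CPM. Of 8 such markers DESeq2 called Fgb between the reciprocal groups and Cps1 between the strains. It also called Ass1 and Cps1 in F1 males against the mean of the strains, and Alb and Cps1 between the sexes. The main edgeR fits called 1 of the 8, Cps1. Cps1 was higher in F1 males than in the mean of the strains (log2 difference 0.81 ± 0.14, adjusted p = 0.0217 from edgeR), where 2.05% of all genes passed. It was lowest in the BFMI male, at 2505 CPM, and the call was lost without the BFMI male and without any 1 of the matBFMI males.

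The globin genes lie in pairs of close copies. On build GRCm38, Hba-a1 lies at chr11:32283511-32284465 and Hba-a2 at chr11:32296489-32297298, both on the plus strand and 12023 bp apart. Hbb-bt lies at chr7:103812524-103813996 and Hbb-bs at chr7:103826534-103828096, both on the minus strand and 12537 bp apart. The reference transcripts of Hba-a1 and Hba-a2 differed at 1 of 538 aligned bases, whereas those of Hbb-bs and Hbb-bt differed at 46 of 626 (92.7% identity). Of all windows of 100 bases, 56.5% of those in Hba-a1 were also in Hba-a2 and 54.8% of those in Hbb-bt were also in Hbb-bs. Reads from such windows cannot be assigned to 1 gene of a pair, so the split within a pair is uncertain. Alas2 (chrX:150547375-150570638, plus strand) and Slc4a1 (chr11:102348824-102366203, minus strand) shared no window of 100 bases with another transcript.

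The bases upstream of the start site are shown for the beta pair, for 1 gene of the alpha pair and for Alas2, because the 4 globin genes moved together across the libraries and Alas2 did so only in part. They were taken from RefSeq (build GRCm38.p6) and end at the base before the RefSeq start site. They are Hbb-bs (chr7:103827929-103828178, minus strand), Hbb-bt (chr7:103813924-103814173, minus strand), Hba-a1 (chr11:32283422-32283671, plus strand) and Alas2 (chrX:150547167-150547416, plus strand). The gene coordinates given above are those of GENCODE, whose gene starts lie farther upstream, so each window overlaps its gene in part. Capitals mark each match, on either strand, to the GATA core GATAA, the KLF core CACCC, the CCAAT box and the TATA-type sequence ATATAA.
Hbb-bs: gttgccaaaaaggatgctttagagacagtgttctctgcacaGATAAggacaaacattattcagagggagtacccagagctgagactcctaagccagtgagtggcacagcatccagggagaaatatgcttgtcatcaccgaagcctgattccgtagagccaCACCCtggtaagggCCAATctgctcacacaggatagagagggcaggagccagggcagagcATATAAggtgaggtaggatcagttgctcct
Hbb-bt: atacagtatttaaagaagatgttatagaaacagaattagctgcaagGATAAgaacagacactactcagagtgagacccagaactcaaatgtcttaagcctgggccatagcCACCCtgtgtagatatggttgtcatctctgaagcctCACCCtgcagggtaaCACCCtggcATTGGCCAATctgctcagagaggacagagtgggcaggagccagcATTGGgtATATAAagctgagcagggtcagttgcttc
Hba-a1: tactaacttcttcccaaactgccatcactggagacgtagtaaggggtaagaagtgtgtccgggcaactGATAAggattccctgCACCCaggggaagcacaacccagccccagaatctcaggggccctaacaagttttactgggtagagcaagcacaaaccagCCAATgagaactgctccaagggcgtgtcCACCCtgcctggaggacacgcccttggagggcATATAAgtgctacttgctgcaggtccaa
Alas2: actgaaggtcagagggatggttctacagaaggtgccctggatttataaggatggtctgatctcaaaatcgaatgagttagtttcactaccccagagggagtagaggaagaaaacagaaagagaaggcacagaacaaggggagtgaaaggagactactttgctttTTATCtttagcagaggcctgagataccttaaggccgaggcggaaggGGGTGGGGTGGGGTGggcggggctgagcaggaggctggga

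The windows of the beta pair and of Hba-a1 held all 4 motifs. A GATAA match, the core that GATA factors bind, lay farthest from the start, at -209 in Hbb-bs, at -204 in Hbb-bt and at -182 in Hba-a1. The ATATAA match, of the TATA box type, began at -30, -29 and -28, and a CCAAT match began at -76, -75 and -88. CACCC, the core that KLF factors bind, lay between GATAA and CCAAT, and in Hba-a1 once more downstream of CCAAT. Hbb-bt held 3 CACCC matches and Hbb-bs held 1. Hbb-bt also held 3 CCAAT matches, 2 of them read as ATTGG, whereas Hbb-bs held 1. No matches overlapped. The Alas2 window held 1 GATAA match, read as TTATC, and 3 CACCC matches, read as GGGTG, but no CCAAT or ATATAA. The window of Hba-a2 was the same sequence as that of Hba-a1, shifted by 3 bases. The windows of Hbb-bs and Hbb-bt were 73.3% identical over 243 aligned bases. Of 32817 promoter windows of the same 250 bases, 22.6% held GATAA, 52.0% CACCC, 33.8% CCAAT and 9.1% ATATAA. A match is a description of the letters and not a bound site.

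The alpha globin genes were high in both BFMI livers, low in both B6N livers and in between in the F1 males. Hba-a1 was at 164.5 CPM in the BFMI male and 114 CPM in the BFMI female, against 51.9 CPM in the B6N male and 33.5 CPM in the B6N female. In F1 males Hba-a1 was at 75.2, 86.4 and 90.9 CPM in matBFMI and at 80.3, 81.85 and 71.4 CPM in patBFMI. The BFMI and B6N libraries did not overlap, the 6 F1 libraries all lay between them, and the reciprocal groups overlapped. Hba-a2 followed with 157.6 and 109 CPM in the BFMI male and female, and 52.0 and 31.6 CPM in the B6N male and female. Its F1 values of 68.5 to 84.3 CPM also lay between the strains. The mean of BFMI was 3.26 times that of B6N for Hba-a1 and 3.19 times for Hba-a2.

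The beta globin genes had the same order of groups. Hbb-bs was at 359 CPM in the BFMI male and 325 CPM in the BFMI female, against 150.4 and 104.5 CPM in the B6N male and female. Its F1 values were 197.2, 227.2 and 196.7 CPM in matBFMI and 227.1, 211.5 and 195.0 CPM in patBFMI. All 6 again lay between the strains, and the reciprocal groups overlapped. Hbb-bt was at 124 and 128 CPM in the BFMI male and female, at 58.4 and 39.3 CPM in the B6N male and female, and at 78.7 to 88.6 CPM in the F1 males. It was the only globin gene whose BFMI female lay above the BFMI male. The mean of BFMI was 2.68 times that of B6N for Hbb-bs and 2.58 times for Hbb-bt.

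Alas2 had a different order, in which males were high. It was at 112 CPM in the BFMI male and 81.6 CPM in the B6N male, but at 56.45 CPM in the BFMI female and 15.8 CPM in the B6N female. In F1 males Alas2 was at 120 CPM, 104 CPM and 118 CPM in matBFMI and at 88.7 CPM, 144 CPM and 108 CPM in patBFMI. The BFMI and B6N libraries overlapped. All 6 F1 males lay above both B6N animals, 3 of them also above the BFMI male, and patBFMI 2 was the highest of all 10. Between its extremes Alas2 spanned 9.1-fold, against 3.26-fold to 4.99-fold for the globin genes. Apex2, a DNA repair gene, overlaps Alas2 on the other strand, and the counting is not stated to use strand. Apex2 was at 4.25 to 5.51 CPM in the 10 libraries, a span of 1.3-fold.

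Slc4a1 was low in all libraries. It had 207 counts (2.05 CPM) in the BFMI male, 55 counts (1.07 CPM) in the BFMI female, and 37 and 34 counts (0.684 and 0.691 CPM) in the B6N male and female. The F1 libraries had 36 to 61 counts, with 0.729, 0.660 and 0.700 CPM in matBFMI and 1.20, 0.790 and 0.607 CPM in patBFMI. The BFMI and B6N libraries did not overlap, but the F1 males were at the level of B6N except for patBFMI 1, which was above the BFMI female. The mean of BFMI was 2.26 times that of B6N.

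**Figure D1:**
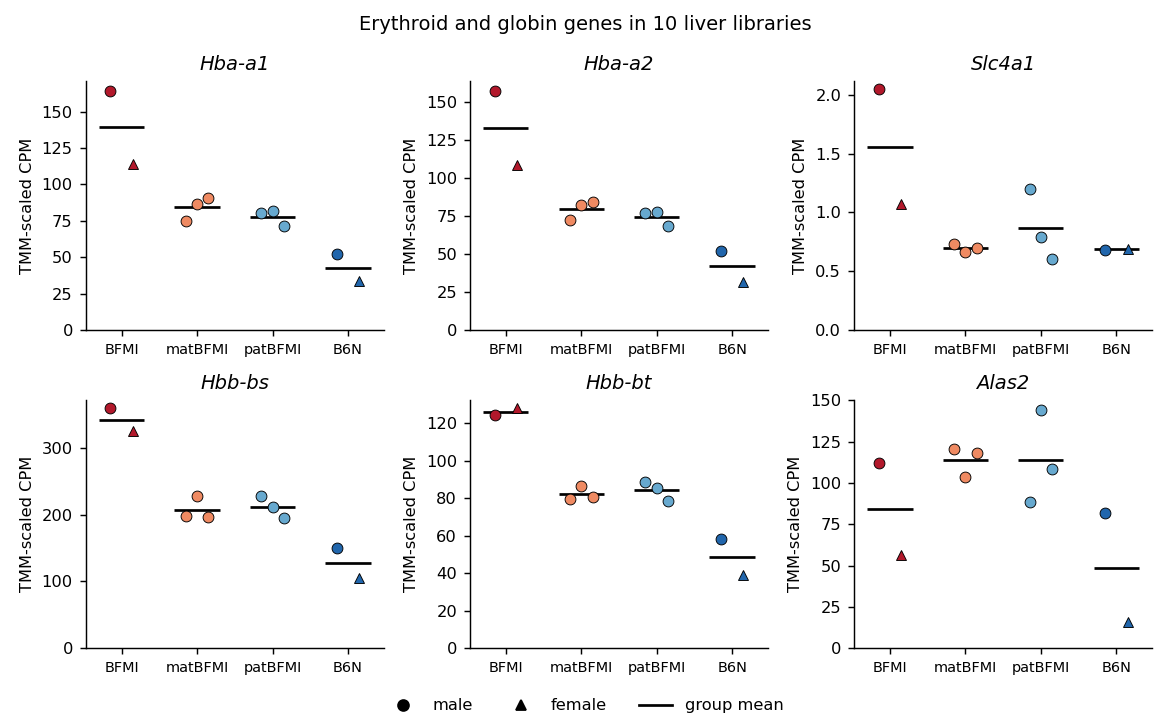
TMM-scaled CPM of the 6 genes in each of 10 liver libraries, by group, with circles for males, triangles for females and bars for group means. The 4 globin genes fall from BFMI over the F1 males to B6N, whereas Alas2 is lowest in the 2 females and Slc4a1 stands out in the BFMI male at 2.05 CPM.

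Levels of different genes were compared per length, with the deposited RPKM values. Hbb-bs was the most abundant of the 6 genes in every group, with a mean of 391 RPKM in BFMI and 156 RPKM in B6N. Hbb-bt, Hba-a1 and Hba-a2 were close to one another, at means of 184, 177 and 206 RPKM in BFMI and 74.4, 56.8 and 67.55 RPKM in B6N. The SDs of the 2 BFMI animals were 48.4 RPKM for Hba-a1 and 56.9 RPKM for Hba-a2, a spread between animals and not of the gaps between genes. Within every library Hba-a2 was above Hba-a1, although the split of reads within this pair is uncertain. Hbb-bt was below both alpha genes in the BFMI male, at 183 RPKM, but above both in the BFMI female, at 185 RPKM. Alas2 was at 7.96 to 56.2 RPKM and Slc4a1 at 0.094 to 0.948 RPKM. For Slc4a1 the deposited RPKM, which were quantile normalized, differed more than the counts did, with 0.637 and 0.105 RPKM for 61 and 37 counts in patBFMI 1 and patBFMI 2.

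The question put to the globin genes was whether BFMI and B6N differed in the amount of globin RNA or in which globin genes were used. A share within a pair does not depend on the scaling of a library. Hbb-bt took 25.7% of the beta globin counts in the BFMI male (exact binomial 95% interval 25.3 to 26.1%, 48905 counts) and 28.3% in the BFMI female (27.7 to 28.9%). It took 28.0% in the B6N male (27.2 to 28.8%) and 27.3% in the B6N female (26.3 to 28.4%, 7075 counts). In the F1 males it took 27.6 to 29.1%. The intervals cover counting error only. The group means were 27.0 ± 1.85% in BFMI and 27.7 ± 0.453% in B6N (SD, n = 2), and 28.5 ± 0.802% in matBFMI and 28.5 ± 0.407% in patBFMI (SD, n = 3). The difference between strains was smaller than the SD of BFMI, and the interval of the BFMI male lay below those of all other libraries. Over all libraries the share spanned 1.13-fold, while the summed CPM of the 4 globin genes spanned 3.85-fold. The share depends in part on how reads from sequence common to Hbb-bs and Hbb-bt were assigned. Genes of another beta haplotype were not analysed here, so their use in BFMI was not tested.

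Hba-a1 took 49.9 to 51.9% of the alpha globin counts in the 10 libraries, with the B6N male lowest and matBFMI 3 highest. The B6N female, at 51.45%, was next to the highest. With nearly identical transcripts this share depends on how shared reads were assigned. The ratio of the pair was also the tightest among the 6 genes, with an SD of 0.03 for the log2 ratio of Hba-a1 to Hba-a2 over 10 libraries. For Hbb-bs to Hbb-bt the SD was 0.07, and for an alpha to a beta gene it was 0.16 to 0.19. For Alas2 to a globin gene it was 0.70 to 0.77.

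**Figure D2:**
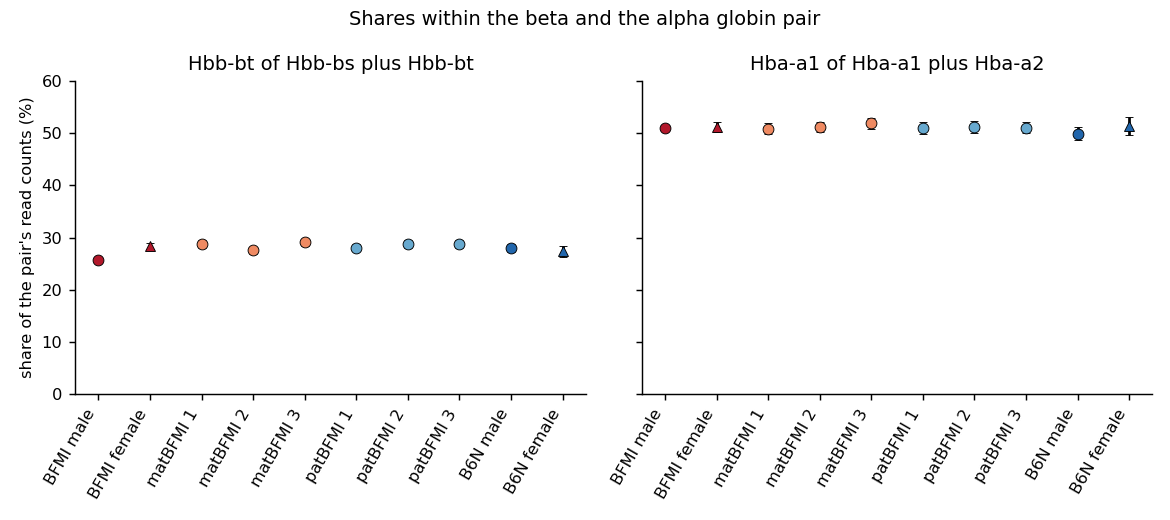
Share of Hbb-bt in the counts of Hbb-bs plus Hbb-bt (left) and of Hba-a1 in those of Hba-a1 plus Hba-a2 (right), in percent, for each library, with exact binomial 95% intervals (circles males, triangles females). The left shares lie between 25.7% and 29.1% and the right shares between 49.9% and 51.9% in all groups.

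Alpha and beta globin counts did not keep a fixed ratio. Alpha over beta counts was 0.666 in the BFMI male and 0.632 in matBFMI 3, the highest of the libraries, and 0.452 to 0.538 in the other 8. Group means were 0.579 ± 0.123 in BFMI and 0.475 ± 0.0321 in B6N (SD, n = 2), and 0.568 ± 0.0557 in matBFMI and 0.516 ± 0.0200 in patBFMI (SD, n = 3). The BFMI libraries overlapped every other group, and matBFMI overlapped patBFMI, whereas both B6N libraries lay below all F1 males, the B6N male by little (0.498 against 0.4985 in patBFMI 1). This comparison was not tested.

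Alas2 relative to globin differed by sex and group. For each 1000 globin counts there were 83.5 Alas2 counts in the BFMI female and 75.7 in the B6N female. The BFMI male had 139, the B6N male had 261, and the F1 males had 187 to 315. The females were thus close to each other and below all males. The BFMI male was below all other males. Slc4a1 counts for each 1000 globin counts were 1.37 to 3.31, with the B6N female highest and matBFMI 2 lowest. In the level of a gene, fewer erythroid cells and less erythroid RNA per cell cannot be told apart in bulk tissue. A ratio to globin counts does not move with the number of erythroid cells if both RNAs come from them. Whether the Alas2 RNA came from erythroid cells was not tested.

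**Figure D3:**
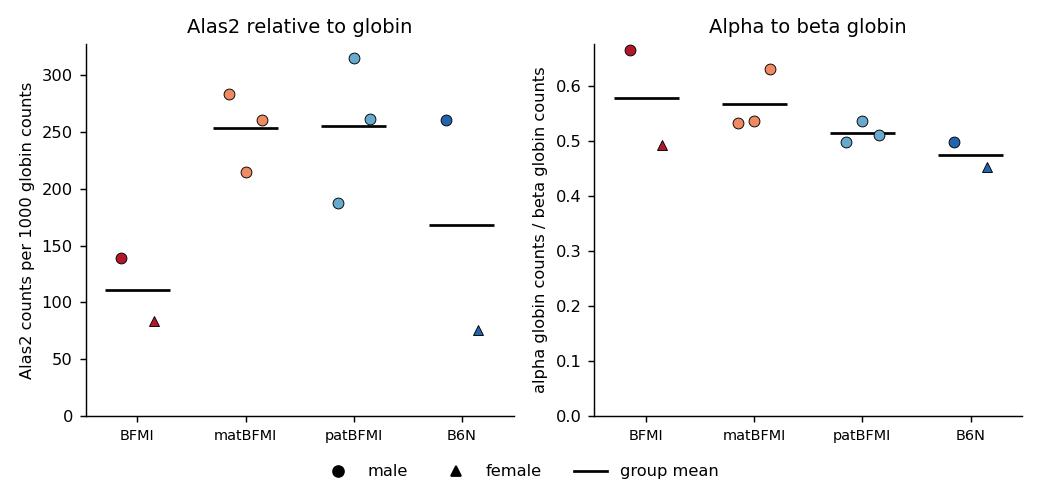
Alas2 counts for each 1000 counts of the 4 globin genes (left) and the ratio of alpha to beta globin counts (right) in each library, with circles for males, triangles for females and bars for group means. The females are lowest in the left panel, at 75.7 and 83.5, and the BFMI male is highest in the right panel, at 0.666.

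The reciprocal F1 groups were compared in 6 libraries with edgeR's quasi-likelihood test over 16797 genes, with Benjamini-Hochberg adjustment. None of the 6 genes passed an adjusted p of 0.05, none had an unadjusted p under 0.05, and DESeq2 also called 0. Over all genes 0.143% passed the threshold in edgeR, where 1654 of 16797 had an unadjusted p under 0.05. DESeq2 called 305 of the 16797. No gene of the 6 had groups that did not overlap, against 15.8% of all genes. Log2 fold changes of matBFMI over patBFMI were 0.10 ± 0.11 (SE) for Hba-a1, 0.08 ± 0.10 for Hba-a2, -0.04 ± 0.11 for Hbb-bs and -0.05 ± 0.09 for Hbb-bt. They were -0.01 ± 0.16 for Alas2 and -0.33 ± 0.30 for Slc4a1. The Slc4a1 value was 0.008 without patBFMI 1, the library that stood apart, and -0.54 without patBFMI 3. For Alas2 it was -0.14 without patBFMI 1 and 0.19 without patBFMI 2. The median was -0.02, against -0.01 over all genes.

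The strains were compared in a fit of all 10 libraries with terms for group and sex, over 19974 genes. All 6 log2 fold changes of BFMI over B6N were positive, with a median of 1.42 against -0.04 over all genes. They were 1.72 ± 0.13 (SE) for Hba-a1, 1.69 ± 0.13 for Hba-a2, 1.45 ± 0.15 for Hbb-bs and 1.40 ± 0.15 for Hbb-bt. Alas2 and Slc4a1 had 1.14 ± 0.30 and 1.13 ± 0.35. The 4 globin genes passed the threshold and Alas2 and Slc4a1 did not, where 3.61% of all genes passed as higher in BFMI. DESeq2 called 5 of the 6 genes as higher, Alas2 among them, where it called 923 of 19974 genes as higher. In 5 of the 6 genes the strains did not overlap, where 20.8% of all genes had BFMI above B6N. Nothing is read from these counts, since the genes were chosen with this comparison known. The spread in this fit came mostly from the F1 males.

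The strain difference was also seen within a sex and within a lane, with 1 library on each side and no test. Between the females, both on lane 4, BFMI was 3.41 times B6N for Hba-a1, 3.44 times for Hba-a2, 3.11 times for Hbb-bs and 3.26 times for Hbb-bt. Between the males, on lanes 1 and 4, these ratios were 3.17, 3.03, 2.39 and 2.13. Alas2 was 3.57 times as high in the BFMI female as in the B6N female but 1.38 times as high in the male. Slc4a1 was 1.55 times as high in the females and 2.99 times as high in the males. A term for strain by sex, added after the values were seen, had an adjusted p of 0.564 for Hbb-bt and 0.463 for Alas2 in edgeR, and it passed the threshold for none of the 6 genes (6 of 19974 genes, 0.03%). Without the BFMI male the median of the 6 log2 fold changes was 1.77. Alas2 depended on the sex left out, with 1.86 without the BFMI male and 1.83 without the B6N male, where it passed the threshold, but 0.46 without the BFMI female or without the B6N female. Slc4a1 went the other way, with 0.65 without the BFMI male, 0.62 without the B6N male and 1.58 without either female.

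The F1 males were set against the mean of BFMI and B6N in the same fit, although no lane held both F1 and inbred libraries. None of the 6 genes passed the threshold in edgeR or DESeq2, and 2 of the 6, Hba-a2 and Slc4a1, had an unadjusted p under 0.05 in edgeR. Over all genes 2.05% passed the threshold in edgeR, where 3323 of 19974 had an unadjusted p under 0.05. DESeq2 called 871 of the 19974. The log2 differences were -0.19 ± 0.11 (SE) for Hba-a1, -0.23 ± 0.10 for Hba-a2, -0.16 ± 0.12 for Hbb-bs and -0.04 ± 0.12 for Hbb-bt. For Alas2 the difference was 0.21 ± 0.24 and for Slc4a1 it was -0.65 ± 0.28. The inbred males decided these values. Without the BFMI male the difference was -0.47 for Alas2 and -0.16 for Slc4a1, and without the B6N male it was 0.94 and -1.09. For Hbb-bt these fits gave -0.37 and 0.27, and for Hbb-bs -0.37 and 0.04. The sex term of this fit rests on the 2 inbred females, and the F1 males have no female of their own.

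Alas2 was lower in females than in males. Its log2 fold change of female over male was -1.67 ± 0.31 (SE), with an adjusted p of 0.0484 from edgeR's quasi-likelihood test. The comparison of the sexes was read after the Alas2 values were seen, and it rests on 1 female of each strain. Within BFMI the male was 1.99 times the female, and within B6N the male was 5.16 times the female. Alas2 was the 1 gene of the 6 that passed, where 0.245% of all genes passed as lower in females. The log2 fold changes of the other members were -0.58 ± 0.13 for Hba-a1, -0.63 ± 0.13 for Hba-a2, -0.33 ± 0.15 for Hbb-bs, -0.26 ± 0.15 for Hbb-bt and -0.51 ± 0.35 for Slc4a1. DESeq2 called 3 of the 6 genes as lower in females, Alas2 and both alpha globin genes, where it called 157 of 19974 genes as lower. The Alas2 call was lost without the B6N male, with an adjusted p of 0.386, and without the B6N female, with 0.402. The log2 fold change was then -0.99 in both cases, and it was -2.39 without the BFMI male and -2.37 without the BFMI female. Without a B6N animal Hbb-bt was at 0.05, and without the BFMI male Slc4a1 was at -0.01.

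**Figure D4:**
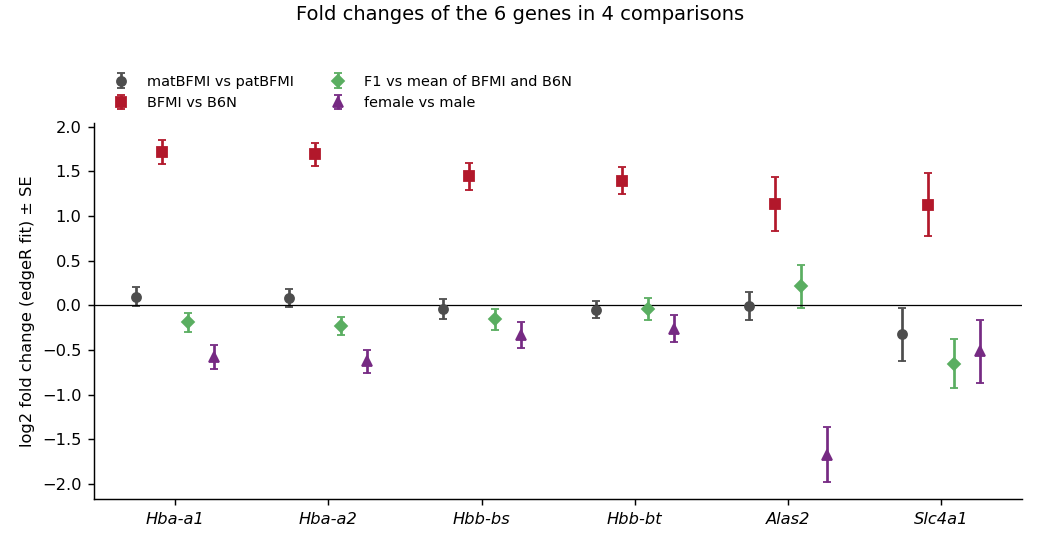
Log2 fold changes with standard errors of the 6 genes from edgeR fits, for matBFMI over patBFMI (circles), BFMI over B6N (squares), F1 over the mean of the strains (diamonds) and female over male (triangles). BFMI over B6N is positive for all 6 genes, from 1.13 to 1.72, and the lowest value of the plot is female over male for Alas2, at -1.67.

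The other erythroid genes were described by the same fit, beside a median of -0.04 over all genes. Of the 16 red cell membrane genes in the table, 13 had enough counts in the fit of 10 libraries. Their median log2 fold change of BFMI over B6N was 0.09, with 1 gene called, Sptb, a beta spectrin of the membrane skeleton, which was lower in BFMI (-1.13 ± 0.28, adjusted p = 0.0386 from edgeR). Sptb was at 0.850 to 0.971 CPM in BFMI and at 1.44 to 2.77 CPM in B6N, and it passed in 8 of 18 settings. The most abundant member, Epb41, encodes protein 4.1, which other cells also make, and was at 77.2 to 96.2 CPM. Xk, a membrane protein of the Kell complex, was at 3.82 to 7.48 CPM. Icam4, an adhesion molecule of red cells, had no count in any library and was named after its values were seen.

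Of the 19 erythroid maturation genes, 18 were tested, with a median of -0.07. Only Slc25a37, for mitoferrin, the mitochondrial iron importer of erythroid cells, passed as higher in BFMI (0.46 ± 0.12, adjusted p = 0.0423 from edgeR). It was at 17.6 and 22.6 CPM in BFMI and 13.3 and 15.8 CPM in B6N, and it passed in 8 of 18 settings. The most abundant genes of the list were Bnip3l, which acts in mitochondrial removal, at 42.5 to 55.4 CPM, Tfrc, the transferrin receptor, at 18.3 to 65.6 CPM, and Zfpm1, a partner of GATA1. Zfpm1 was higher in F1 males than in the mean of the strains, by 0.62 ± 0.11 on the log2 scale (adjusted p = 0.0225). It was at 22.8 to 33.6 CPM in F1 males and 14.6 to 19.1 CPM in the inbred animals. Gata1, the erythroid master regulator, reached 0.468 CPM at most and was named after its values were seen.

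Other globin genes were near the limit of detection. The 9 embryonic, minor and pseudogene globins in the table summed to 0.0337 to 0.752 CPM per library, and none had enough counts to be tested. The highest in mean level were Hba-ps4, Hbq1b and Hba-x, each at no more than 0.203 CPM. The adult genes of the other beta haplotype, Hbb-b1 and Hbb-b2, were not matched to an identifier in the annotation used here, so they were not analysed here.

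Of the 8 heme synthesis genes beside Alas2, 2 were called as higher and 1 as lower in BFMI. Alad, for aminolevulinate dehydratase, the enzyme after aminolevulinate synthase, was at 152 and 182 CPM in BFMI against 54.0 and 61.3 CPM in B6N (log2 fold change 1.53 ± 0.13, adjusted p = 7.64e-05 from edgeR). The F1 males were in between, at 105 to 129 CPM. Cpox, coproporphyrinogen oxidase, was higher by 0.73 ± 0.16 (adjusted p = 0.0222 from edgeR) and passed in 13 of 18 settings. Alas1, the synthase of liver, was lower in BFMI (-1.65 ± 0.38, adjusted p = 0.0290 from edgeR) and also passed in 13 of 18 settings. It was at 47.2 and 150.6 CPM in BFMI and 189 and 371 CPM in B6N. Alas1 varied widely, with 355 ± 165 CPM in matBFMI and 98.3 ± 20.3 CPM in patBFMI (SD, n = 3), a log2 difference of 1.84 ± 0.31 that missed the threshold in edgeR (adjusted p = 0.0848) but passed it in DESeq2 (0.00171), and in 5 of 16 settings. Fech, ferrochelatase, the last enzyme, was at 109.5 to 138 CPM, with a log2 fold change of 0.02 ± 0.13 between strains.

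Of the 8 genes that bind or clear hemoglobin and heme, Slc48a1, a heme transporter, was higher in BFMI (0.91 ± 0.15, adjusted p = 0.00522 from edgeR). Hp, haptoglobin, which binds free hemoglobin, was lower in F1 males than in the mean of the strains (-0.72 ± 0.15, adjusted p = 0.0410). Hpx, hemopexin, which binds free heme, was also lower (-0.49 ± 0.11, adjusted p = 0.0474). Lrp1, the receptor that takes up the heme and hemopexin complex, was higher by 0.82 ± 0.16 (adjusted p = 0.0349). Hp was at 1235 to 1309 CPM in BFMI and 1060 to 1670 CPM in B6N, against 760.4 to 1083 CPM in F1 males.

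Blood cell markers other than those of red cells moved in part with the globin genes. The summed level of the 10 neutrophil markers was 9.67 CPM in the BFMI male and 4.54 CPM in the BFMI female, against 2.31 to 3.19 CPM in B6N and 1.37 to 2.36 CPM in F1 males. The F1 males, with more globin RNA than B6N, thus did not exceed B6N in neutrophil markers except for patBFMI 1, which lay above the B6N male. S100a8, a calprotectin subunit, was at 2.08 and 0.641 CPM in BFMI against 0.259 and 0.264 CPM in B6N (log2 fold change 2.20 ± 0.52, adjusted p = 0.0325 from edgeR). S100a9, the other subunit, was at 2.81 and 1.42 CPM in BFMI and 0.651 and 0.462 CPM in B6N (1.87 ± 0.50, adjusted p = 0.0536), and F1 males were below the mean of the strains (-1.90 ± 0.39, adjusted p = 0.0393). Csf3r, a receptor of neutrophils, was at 0.636 to 2.27 CPM. Of the defining markers, Camp had no count in the BFMI female and in 3 F1 males.

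Lymphocyte markers summed to 4.21 to 4.57 CPM in BFMI and 4.27 to 6.59 CPM in B6N, and platelet markers to 3.44 to 3.97 CPM and 3.48 to 4.41 CPM, so these 2 lists overlapped between the strains. The most abundant were Cd4, Lck and Cd79b among the lymphocyte markers, at 0.303 to 1.81 CPM, and Itga2b, Gp1ba and Ppbp among the platelet markers, at 0.185 to 2.05 CPM. No lymphocyte or platelet gene was called in any comparison. Over the 7 lists without hepatocyte genes, 7 of 69 genes tested were called between the strains (6.67% of all genes). In F1 males against the mean of the strains 5 of 69 were called (2.05%), and between the reciprocal groups 0 of 53 (0.143%). DESeq2 called 1 of these 53 between the reciprocal groups, and 305 of all 16797 genes. Between the strains, Alad passed in all 18 settings tried, and without the BFMI male or without the B6N male it was the 1 list gene called. Against the mean of the strains 0 list genes were called without the BFMI male, or without any 1 of the matBFMI males, and 1 without the B6N male or without patBFMI 3. The part of blood content, of neutrophils and of depth in the globin difference was not tested.

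**Figure D5:**
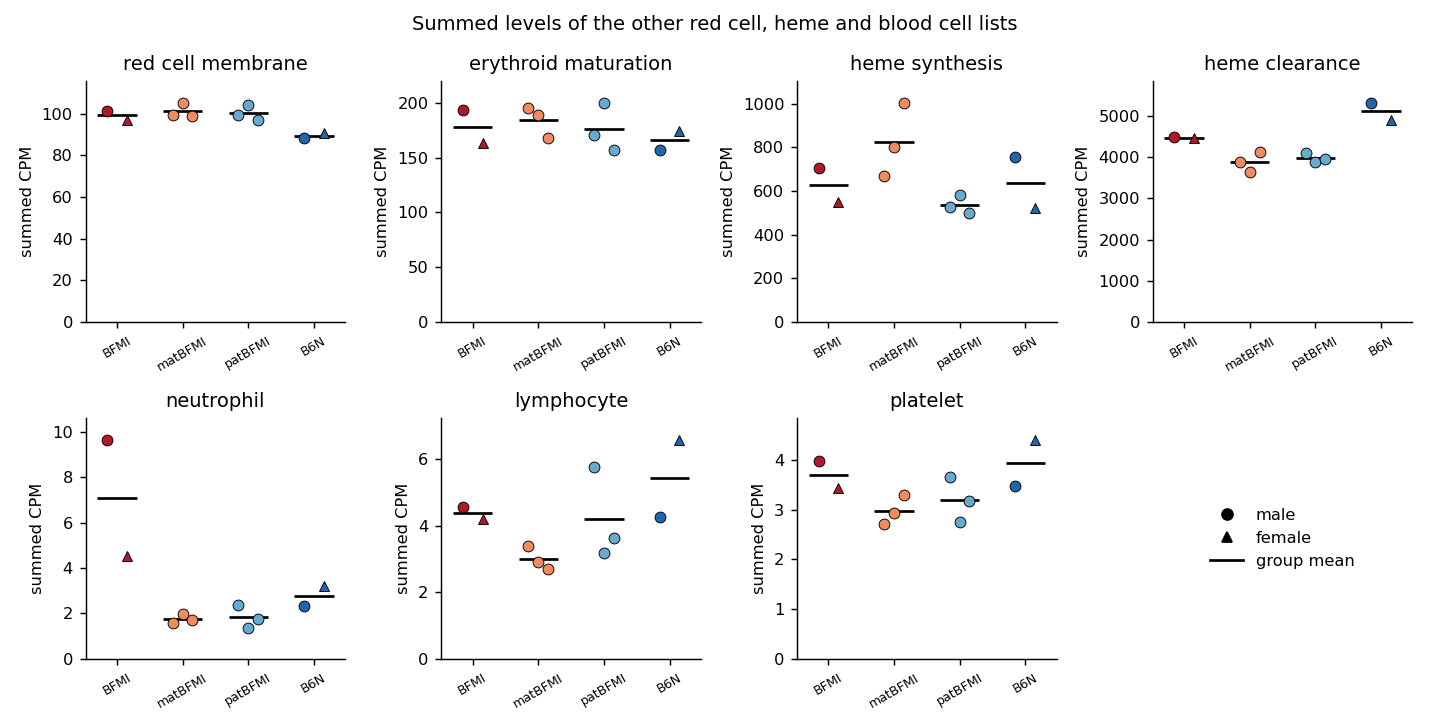
Summed TMM-scaled CPM of the genes of 7 lists in each library, by group, with circles for males, triangles for females and bars for group means. The neutrophil list is highest in the BFMI male, at 9.67 CPM, whereas the red cell membrane list spans 88.3 to 105 CPM. Most of the red cell membrane sum is Epb41, at 77.2 to 96.2 CPM, a gene that other cells also express.

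The genes outside the list whose levels ran most alike over the 10 libraries were named for the alpha pair, Hbb-bt, Alas2 and Slc4a1, among 13148 genes with a mean of at least 1 CPM. Likeness is Pearson's r of log2(CPM + 0.5), a description across libraries that differ in strain, sex and depth. For the alpha pair summed they were Ciapin1 (r = 0.982), Sfr1 (0.976), Fam131c (0.973), Cptp (0.967) and Slc20a2 (0.963). Ciapin1, an iron-sulfur cluster assembly factor, was at means of 19.7 CPM in BFMI and 9.41 CPM in B6N. For Hbb-bt they were Osbpl11 (0.978), Serpina11, Krt23, 1600014C10Rik and Fam213b, all higher in BFMI on average.

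For Alas2 the genes most alike were Extl3 (r = 0.988), Cyp4a12b (0.975), Fbxl18 (0.973), Cyp4a12a (0.970) and Lgals8 (0.970). Cyp4a12a and Cyp4a12b are cytochromes P450 known for higher levels in male mouse liver. They spanned 224-fold and 142-fold over the libraries, and for all 5 genes the B6N female was lowest. For Slc4a1 they were Trp53inp2 (r = 0.932), Trpm4 (0.918), Tpp1, Gm26809 and Zfp608, each highest in the BFMI male. Of the 20 genes named by likeness, 0 are in the lists of red cell, heme or blood cell genes.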

How the data were processed

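Liver RNA of 10 mice was sequenced on an Illumina HiSeq2000 after removal of ribosomal RNA, although the molecule field of the labels reads polyA RNA. Per the study's methods the authors removed duplicate reads and counted the rest in union mode, and the first deposited table holds these raw counts for each gene of Ensembl release 81. They also deposited RPKM values, computed after quantile normalization between samples. Removal of duplicates can lower the counts of short, abundant transcripts such as globins. The study's methods name BWA for the alignment to GRCm38, whereas the submitters' processing notes name TopHat2 2.10, Bowtie2 2.2.6, Trimmomatic 0.32 and Picard 1.99. Each table also has 3 columns for animals outside the sample records, which were not used. Of 41388 gene identifiers, 40254 were matched to symbols of GENCODE M21.

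Counts were scaled by TMM and tested with the quasi-likelihood test of edgeR 4.0.16 in R 4.3.3, adjusted by Benjamini-Hochberg and called under 0.05. A gene entered the F1 fit where 3 of 6 libraries held 10 counts or more, and the fit of 10 libraries where 2 did. Nothing in the labels ties libraries to shared parents, so p-values measure the spread between these animals. All pairs of libraries within a group differed beyond sampling noise. Standard errors were taken from the fold change and the F statistic. The pipeline was tested on simulated data.

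The 6 genes and the gene lists were chosen with earlier results of these data known. Named genes are the 6 genes, every list gene that passed in a comparison, up to 3 genes of each list with the highest mean CPM, and the 5 genes most alike each of 4 patterns. Others were chosen after their values were seen. Of 101 list genes, 5 were not matched. Alternatives were DESeq2 1.42.0, limma 3.58.1 on log2 of RPKM plus 1 or 0.1, other scalings, other filters, the offspring number as a block, and fits without 1 library. The comparison of the sexes, the term for strain by sex, the alpha to beta ratio and the counts of list genes under each alternative were added after seeing the data.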

Additional observations from a re-analysis of the deposited data

How the results depend on the processing

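The strain difference of the 4 globin genes passed the threshold in all 18 settings, Alas2 in 8 and Slc4a1 in 1. In the reciprocal comparison 0 of the 6 genes passed in any of 16 settings, and against the mean of the strains 0 in any of 15. The main limits are depth for Slc4a1, at 34 to 207 counts, shared sequence within the globin pairs, and 1 animal of each sex and strain. Where a library of an inbred strain was left out, the lone animal is assumed to vary like the other groups.

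Offspring numbers did not pair the F1 males. Deviations of same-numbered males correlated by 0.294, -0.061 and 0.0965, and only number 1 correlated best with its own number in both groups. With the offspring number as a replicate block 175 genes were called between the reciprocal groups, against 24 without it, and 1 list gene against 0.

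Between matBFMI and patBFMI, 56 genes were called with scaling by library size only (45 higher and 11 lower in matBFMI, against 16 and 8 with TMM), 305 with DESeq2, 696 with any gene with a count, 0 with limma on log2(RPKM + 1), where 692 genes had an unadjusted p under 0.05, and 2 with limma at a pseudocount of 0.1 or at a minimum of 0.5 RPKM. Leaving out 1 library gave 7 (without matBFMI 3) to 63 (without patBFMI 2). The list genes called were 1 with library size only or DESeq2, 2 with any gene with a count, and 0 to 1 without 1 library. Between BFMI and B6N, limma called 605 genes against 1332, and 536 to 1523 were called without 1 library, fewest without the B6N male. The list genes called were 11 with any gene with a count and 3 with limma, against 7, and 1 to 9 without 1 library. The median of the 6 genes was 1.42 to 1.77 without 1 library. The difference of the Hbb-bt share between strains was -0.665 percentage points, 0.64 without the BFMI male and -1.97 without the BFMI female. Against the mean of the strains DESeq2 called 871 genes against 410, and 13 (without the BFMI male) to 937 (without patBFMI 1) were called without 1 library. The list genes called were 3 with library size only, against 5, and 0 to 6 without 1 library. Between the sexes DESeq2 called 384 genes against 111, and 38 (without the B6N female) to 152 were called without 1 inbred library. The cause of these changes was not tested.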
